A study of Mus musculus with 16 samples.

Results

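The genes described here encode solute carriers, the membrane proteins that move amino acids, sugars, nucleosides, vitamins, metals and inorganic ions across the plasma membrane and the membranes of organelles. They were taken as the genes whose symbol has the form Slc, a family number, the letter a and a member number, with at least 1 FPKM (fragments per length of transcript, scaled to the library's mapped fragments) in at least 4 of 16 libraries, leaving out the glucose carriers Slc2a1 and Slc2a3. Of 330 such symbols in the table, 138 reached this level, from 40 of 48 families, among 11422 genes tested and 43437 genes in all. Symbol and level chose them, so their presence is not a result: 192 symbols stayed below it, and 25 of those were listed at 0 in every library. Just inside the threshold, by the fourth highest value, were Slc16a13 (1.01 FPKM), Slc27a2 (1.02) and Slc7a2 (1.13), and just outside were Slc38a1 (0.999), Slc2a4 (0.965) and Slc39a3 (0.957). None of the 138 had 1 FPKM in the libraries of 1 group alone, but 9 would have missed the threshold without the libraries of 1 group: Slc16a13, Slc19a1, Slc22a5, Slc25a21, Slc26a6, Slc27a2, Slc28a2, Slc6a13 and Slc7a2.

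The study followed the timing of the first lineage decision in mouse embryos. Double-stranded RNA against the transcription factor Tfap2c, against Tead4 or against both was given at the zygote stage, with double-stranded RNA against GFP, which mouse embryos lack, as the control. Each of the 4 groups had 4 libraries, and each library pooled 10 embryos at the 8-cell stage, about 80 cells, cultured in KSOM with the zona pellucida removed by acidic Tyrode's solution. Libraries A1 and A2 hold embryos of C57BL/6J×CBA/J mothers (cross A), and B1 and B2 those of C57BL/6J×DBA/2J mothers (cross B). Fathers were C57BL/6J×DBA hybrids whose DBA suffix changes from sample to sample in the labels. The labels do not say that the pools came from separate experiments, and a p-value here covers the spread among these pools only, which may be technical.

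In the early embryo, amino acid carriers supply protein synthesis and bring in amino acids that serve as osmolytes, and carriers of the mitochondrial inner membrane link the cytosol to pyruvate- and lactate-based respiration. Many exchange one solute for another, or use sodium, proton or chloride gradients, so their families are grouped by substrate and not by sequence alone. TFAP2C is a factor of the AP-2 family and TEAD4 a partner of YAP, and both are known for the trophectoderm, an epithelium whose sodium- and chloride-driven fluid transport later forms the blastocyst cavity.

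The targeted transcripts were measured first. Tfap2c stood at 43.2, 38.8, 28.3 and 32.5 FPKM in the control (in the order A1, A2, B1, B2, kept throughout), at 13.9 to 17.9 in the Tfap2c knockdown and at 15.7 to 16.5 in the double knockdown, 44.3% and 45.3% of the control mean. Tead4 stood at 41.8 to 58.4 FPKM in the control, 5.57 to 11.01 in the Tead4 knockdown and 5.396 to 14.8 in the double knockdown, 15.7% and 19.5% of the control mean. Tead4 was also lower in the Tfap2c knockdown, at 19.0 to 37.4 FPKM (log2 change -0.79, adjusted p = 0.0192), while Tfap2c in the Tead4 knockdown was at 97.4% of control. No library overlapped the control for its targeted gene (exact permutation test, two-sided, p = 0.0286, the smallest that 4 against 4 allows). FPKM summed to 799260 to 874436 per library with 10049 to 10504 genes at 1 FPKM or more, and the read depth behind these values is unknown. All 9 markers of the 8-cell embryo were present, with summed levels of 8576 to 9459 FPKM in the control, 6120 to 7347 in the Tfap2c knockdown, 8236 to 9181 in the Tead4 knockdown and 6455 to 7697 in the double. This list includes Tfap2c itself. By limma at an adjusted p under 0.05, 6 of the 9 were lower in the Tfap2c knockdown and 5 in the double, beside 13.2% and 11.3% of all genes. None of 10 cumulus and none of 5 sperm markers reached 1 FPKM in any library, with Ptx3, Inhba, Cyp11a1 and Inha at 0 throughout. Of 6 blood markers, Hba-a1 and Hba-a2 did, with sums of 9.86 to 26.9 FPKM in the control, 29.3 to 63.0, 20.4 to 50.9 and 40.7 to 77.7 in the Tfap2c, Tead4 and double knockdowns, while Hbb-bs, Hbb-bt and Ptprc were at 0; the part of either list in the results was not tested. In pooled embryos, fewer cells and less RNA per cell cannot be told apart.

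The promoter stretches of 6 members that changed in a knockdown are shown here because the depleted factors bind DNA at known core motifs. Each is read 5′ to 3′ on the gene's own strand from RefSeq, build GRCm38.p6, from within 250 bases before a start site (1 window where several are listed): Slc7a6, chr8:106168729-106168818 (+ strand); Slc7a7, chr14:54409638-54409717 (- strand); Slc12a7, chr13:73763577-73763656 (+ strand). The other 3 are Slc22a5, chr11:53891789-53891868 (- strand), Slc28a3, chr13:58610957-58611036 (- strand) and Slc29a1, chr17:45597152-45597401 (- strand). Capitals mark GCCNNNGGC, an AP-2 core that is its own reverse complement, and GGAATG, a TEAD core read as such or as CATTCC on the opposite strand. No matches overlap in these stretches. Where a gene has several windows, the one with the most matches is shown. The other windows of Slc7a7 hold none, nor do most of those of Slc29a1. All 6 genes shown carry a match, so they do not stand for the members that changed. Slc22a13, Slc25a22, Slc30a2, Slc39a2, Slc41a2 and Slc19a3, which also changed, have no match in any listed window. Slc7a6 (higher in the Tfap2c knockdown, lower in the Tead4 knockdown), Slc12a7 (lower in the Tfap2c knockdown) and Slc22a5 (higher) carry the AP-2 core, Slc7a7 (lower in the Tfap2c knockdown) and Slc28a3 (lower in both single knockdowns) the TEAD core, and Slc29a1 (lower in the Tead4 knockdown) both.
Slc7a6: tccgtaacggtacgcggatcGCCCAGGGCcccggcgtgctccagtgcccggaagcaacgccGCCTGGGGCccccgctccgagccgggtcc
Slc7a7: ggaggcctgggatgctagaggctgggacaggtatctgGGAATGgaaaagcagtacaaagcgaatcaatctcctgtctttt
Slc12a7: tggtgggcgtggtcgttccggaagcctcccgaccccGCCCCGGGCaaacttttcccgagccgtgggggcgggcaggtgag
Slc22a5: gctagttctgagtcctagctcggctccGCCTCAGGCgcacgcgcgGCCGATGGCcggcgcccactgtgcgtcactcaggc
Slc28a3: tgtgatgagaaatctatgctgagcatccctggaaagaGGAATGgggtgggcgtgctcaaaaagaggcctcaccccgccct
Slc29a1: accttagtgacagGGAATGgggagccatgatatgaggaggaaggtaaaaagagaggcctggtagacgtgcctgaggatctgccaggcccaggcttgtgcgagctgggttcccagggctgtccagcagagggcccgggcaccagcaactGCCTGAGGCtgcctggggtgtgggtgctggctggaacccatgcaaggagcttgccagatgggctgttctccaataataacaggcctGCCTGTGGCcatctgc

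A promoter window of RefSeq was found for 106 of the 138 members. GCCNNNGGC was present in 22 of them (20.8%), against 23.0% of tested genes and 15.4% of 27025 genes with a window. It was present in 5 of 21 members higher in the Tfap2c knockdown (23.8%) and in 2 of 20 lower (10.0%), beside 23.0% and 23.5% of all genes called higher and lower. GGAATG was also present in 22 members (20.8%), against 12.4% of tested genes and 14.4% of all, and in 3 of 8 members lower in the Tead4 knockdown (37.5%), beside 18.2% of all genes lower there. Such matches describe letters in a window and are no evidence of binding.

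In control embryos the members ranged from 0.29 FPKM for Slc22a5, a carnitine carrier, to 809 for Slc25a3, the mitochondrial phosphate carrier, with a median of 4.29 against 6.63 for all genes tested. Per length of transcript, 6 members stood at 100 FPKM or more: Slc25a3 (809 ± 75.3 FPKM, SD, n = 4), the ADP/ATP carrier Slc25a5 (540.4 ± 106), the multivitamin carrier Slc5a6 (336 ± 49.8), the glutamate and cysteine carrier Slc1a1 (134 ± 24.9), the amino acid carrier heavy chain Slc3a2 (123 ± 24.6) and the zinc importer Slc39a1 (116 ± 23.3). Neighbours in this order from Slc1a1 to Slc39a1 lay within each other's spread. Another 38 members stood at 10 to 100 FPKM, 82 at 1 to 10 and 12 below 1. The 35 mitochondrial carriers held 51.3% of the members' summed FPKM, and the 10 highest members held 65.2%. Summed, the members took 0.369% to 0.470% of all FPKM in a library, and 115 to 128 of them were at 1 FPKM or more. Of the carriers looked up by name that missed the threshold, Slc38a2, a neutral amino acid carrier, ranged from 0.418 to 1.37 FPKM, the lactate exporter Slc16a3 reached at most 0.256, the iron exporter Slc40a1 at most 1.84 and the cystine carrier Slc7a11 at most 0.375.

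**Figure D1:**
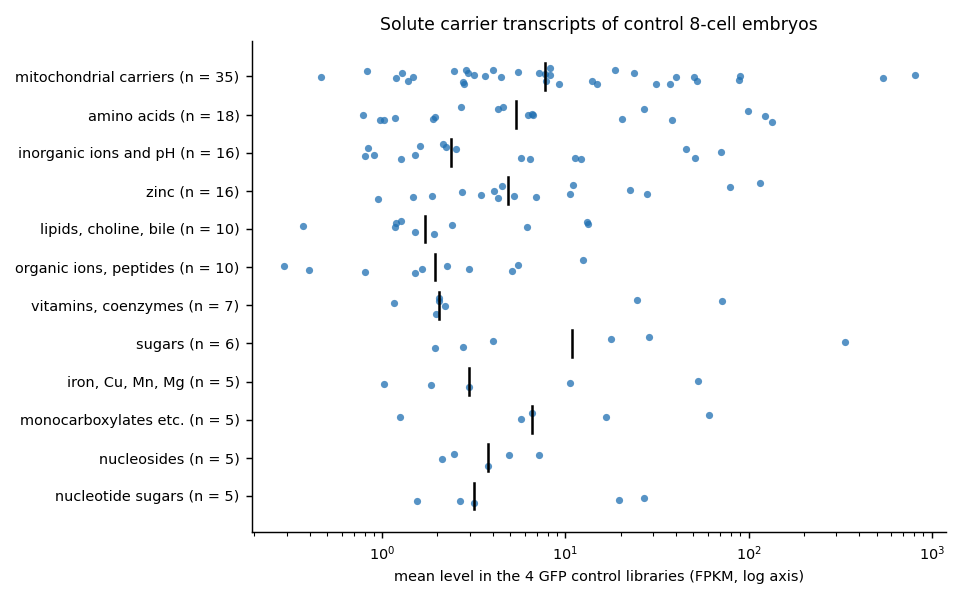
Mean FPKM of each member in the 4 control libraries (log axis), grouped by substrate, with bars at the group medians. Points span 0.290 FPKM (Slc22a5) to 809 FPKM (Slc25a3), and the highest points are mitochondrial carriers, Slc25a3 and Slc25a5.

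In embryos with Tfap2c knocked down, the carriers that fell furthest by log2(FPKM + 1) were the organic anion carrier Slc22a13, the vesicular zinc carrier Slc30a2 and the potassium-chloride cotransporter Slc12a7 (-2.04, -1.96 and -1.88). Those that rose furthest were the magnesium carrier Slc41a2, the carnitine carrier Slc22a21 and the thiamine carrier Slc19a3 (1.74, 1.41 and 1.39). In the Tead4 knockdown the amino acid carrier Slc6a14 fell furthest (-1.44) and the zinc importer Slc39a6 rose furthest (1.27). The scale of log2(FPKM + 1) understates changes of low genes, so the order by ratio of FPKM can differ. In all, 52 members changed in the Tfap2c knockdown, 27 higher and 25 lower (37.7% of the members). Of all genes tested 29.6% were called, 16.3% higher and 13.2% lower. A gene was called at an adjusted p under 0.05 from limma across all genes, and changes are differences of log2(FPKM + 1). In the Tead4 knockdown 16 members changed, 7 higher and 9 lower (11.6%), against 6.13% of all genes, 3.35% higher and 2.78% lower. In the double knockdown 46 changed, 21 higher and 25 lower (33.3%), against 25.1% of all genes, 13.9% higher and 11.3% lower. Over 2-fold on this scale, 5 members were higher and 12 lower in the Tfap2c knockdown, beside 6.75% of all genes (2.71% higher and 4.04% lower). In the Tead4 knockdown 1 was higher and 1 lower, beside 1.51% (0.508% and 0.998%). In the double 3 were higher and 11 lower, beside 5.89% (2.28% and 3.62%). The members' median log2 change was 0.08, 0.04 and 0.04 in the 3 knockdowns, beside 0.06, 0.05 and 0.05 for all genes. Libraries of the Tfap2c knockdown and the control did not overlap for 21 members higher and 24 lower, beside 22.1% of all genes (12.2% and 9.9%). For the Tead4 knockdown they were 13 and 5, beside 9.67% (6.07% and 3.6%), and for the double 13 and 23, beside 20.6% (11.3% and 9.3%). Of the 27 members higher in the Tfap2c knockdown, 3 reached the level of 1 FPKM in 4 libraries only with that knockdown's libraries (Slc22a5, Slc27a2 and Slc6a13), and of the 25 lower, 3 only with the control's (Slc16a13, Slc25a21 and Slc28a2). The same 3 are among the 25 lower in the double. A gene selected through the group where it is high tends to differ, so the p-values of these 6 are descriptions. The Tead4 split moved with scaling, to 3 higher and 9 lower with median-ratio factors and 5 and 8 with quantile normalization. Its count of 16 fell to 9, 8 and 7 without control A1, A2 or B2 and to 9, 10 and 10 without Tead4 knockdown A1, A2 or B2, and to 4 without the cross as a covariate. Among calls named with their values here that held with each library left out in turn, those of Slc1a1 and Slc28a2 in the Tfap2c knockdown, of Slc25a41, Slc5a6 and Slc30a2 in the Tfap2c and double knockdowns and of Slc26a5 and Slc39a6 in the Tead4 knockdown were lost without the cross as a covariate (adjusted p 0.0578 to 0.354).

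**Figure D2:**
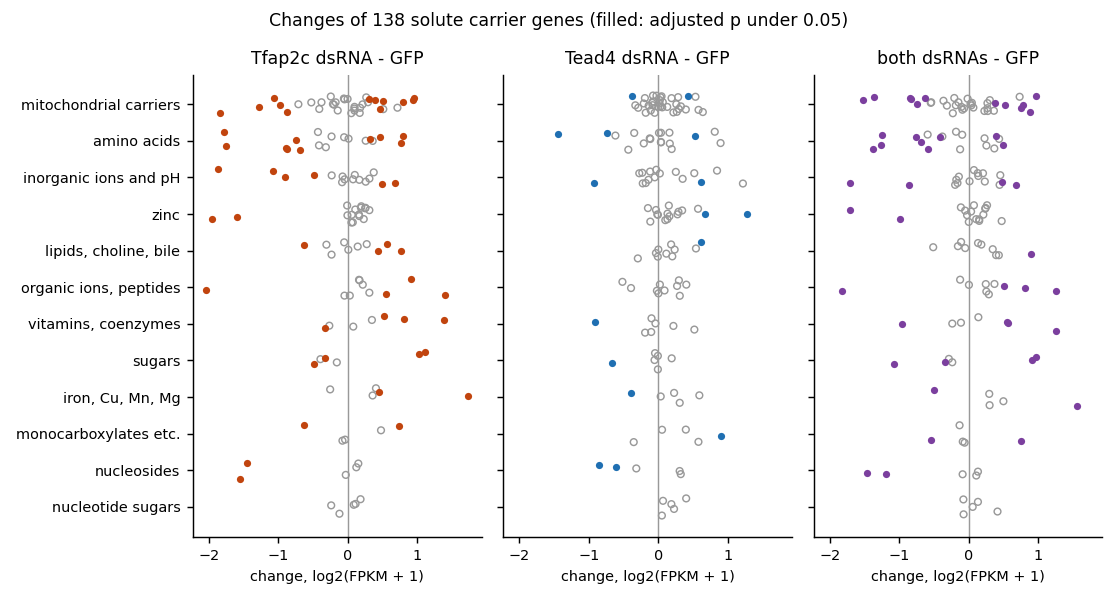
Log2 change against the GFP control of every member in the Tfap2c, Tead4 and double knockdowns, grouped by substrate. Filled points have an adjusted p under 0.05 (52, 16 and 46 members), and the filled points of the Tead4 panel are the fewest.

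Among the 18 amino acid carriers, 4 rose and 6 fell in the Tfap2c knockdown (55.6% called). In the Tead4 knockdown 1 rose and 2 fell (16.7%), and in the double 2 rose and 7 fell (50%). Shares called in this and the following groups stand beside 29.6%, 6.13% and 25.1% of all genes in the Tfap2c, Tead4 and double knockdowns. Whether a group's share differs from that of all genes was not tested. The group's median log2 change in the Tfap2c knockdown was -0.28. Slc7a6 (ENSMUSG00000031904, GRCm38 chromosome 8, 106168219 to 106198714) is the light chain of an exchanger of cationic for neutral amino acids. It stood at 21.4, 19.5, 18.9 and 21.9 FPKM in the control and 43.7, 36.8, 29.2 and 32.97 in the Tfap2c knockdown. Slc7a6 values were 14.2, 11.9, 10.8 and 10.9 in the Tead4 knockdown and 32.3, 30.4, 27.2 and 26.7 in the double knockdown. All 4 libraries were above the control in the Tfap2c and double knockdowns and all 4 below it in the Tead4 knockdown, with no overlap between any of these groups and the control. The log2 changes were 0.76 ± 0.10, adjusted p = 6.82e-05 in the Tfap2c knockdown, -0.73 with adjusted p = 0.000557 in the Tead4 knockdown and 0.49 with adjusted p = 0.00236 in the double. Slc7a7, the closely related light chain of the same transport system, stood at 5.19, 4.14, 4.78 and 3.11 FPKM in the control and 0.405, 0.106, 1.04 and 0.83 in the Tfap2c knockdown. Slc7a7 values were 2.51, 4.48, 2.71 and 3.06 in the Tead4 knockdown and 1.13, 0.877, 1.55 and 0.631 in the double knockdown. The Tfap2c and double knockdown libraries all lay below the control, and the Tead4 knockdown overlapped it. It fell by 1.76 and 1.38 on the log2 scale in these knockdowns (adjusted p = 3.78e-05 and 0.00035), and its change in the Tead4 knockdown was -0.35 with adjusted p = 0.408; its span overlaps Oxa1l, and the labels do not state strand-specific counting. Slc3a2, the heavy chain that carries both light chains to the membrane, stood at 109, 96.5, 144 and 144 FPKM in the control and 116, 112, 67.6 and 78.4 in the Tfap2c knockdown. Slc3a2 values were 126, 86.6, 133 and 156 in the Tead4 knockdown and 74.99, 102, 53.96 and 78.4 in the double knockdown. Its groups overlapped, and it passed the test in the double knockdown (-0.68 ± 0.23, adjusted p = 0.0402). Slc3a2 lost this call without any 1 of control A1/B1/B2, double knockdown A1/B1/B2 (adjusted p 0.0521 to 0.134), and with no filter on low values and no cross covariate (adjusted p = 0.107 and 0.0534). The call was also lost with the replicate number as a block in place of the cross (adjusted p = 0.0528).

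Of 6 members of the sodium-driven Slc6 family, 3 fell and 1 rose in the Tfap2c knockdown (66.7% called). Slc6a15, a carrier of branched-chain amino acids and proline, stood at 4.09, 6.11, 5.72 and 10.7 FPKM in the control and 1.22, 1.02, 1.05 and 1.17 in the Tfap2c knockdown. Slc6a15 values were 4.69, 2.74, 5.49 and 5.22 in the Tead4 knockdown and 2.75, 1.56, 2.01 and 1.97 in the double knockdown. Every Tfap2c and double knockdown library lay below every control library, and Slc6a15 fell there (-1.79 ± 0.21, adjusted p = 2.63e-05, and -1.26 ± 0.21, adjusted p = 0.000585). Slc6a14, a broad carrier of neutral and cationic amino acids, stood at 5.27, 5.75, 6.19 and 7.68 FPKM in the control and 3.16, 4.51, 2.42 and 1.85 in the Tfap2c knockdown. Slc6a14 values were 1.08, 1.33, 2.03 and 2.28 in the Tead4 knockdown and 2.53, 2.25, 1.24 and 2.16 in the double knockdown. All 12 knockdown libraries lay below the control, and it fell by 0.89, 1.44 and 1.26 on the log2 scale in the Tfap2c, Tead4 and double knockdowns (adjusted p = 0.00666, 0.00121 and 0.000744). Slc6a6, the taurine carrier, went from 26.8 ± 2.4 FPKM to 16.5 ± 3.8 and 15.6 ± 2.9 in the Tfap2c and double knockdowns (-0.69 ± 0.15, adjusted p = 0.00275, and -0.76 ± 0.15, adjusted p = 0.00161). Slc43a3, placed here by family although it is known for purine nucleobases, fell from 99.9 ± 11.8 to 60.7 ± 18.7 and 66.9 ± 12.4 (adjusted p = 0.00224 and 0.0127). Slc1a1 rose from 134 ± 24.9 to 166 ± 17.1 and 175 ± 15.2 in the same knockdowns, with overlapping libraries (adjusted p = 0.00959 and 0.00299). Slc6a13, a carrier of the inhibitory transmitter GABA, was near 1 FPKM and reached the level for inclusion through the Tfap2c knockdown libraries, where it was higher, with a range of 0.289 to 1.67 FPKM in the control and 1.43 to 3.95 in the knockdown (0.79 ± 0.26, adjusted p = 0.0318). Slc6a13 lost this call without any 1 of control A1/A2/B2, Tfap2c knockdown A1/B2 (adjusted p 0.0555 to 0.108), and with a pseudocount of 0.1, no filter on low values and the compared libraries alone (adjusted p = 0.112, 0.0809 and 0.0639). The glutamine carrier Slc1a5 stood at 3.47, 1.53, 3.75 and 1.97 FPKM in the control and 5.63, 4.25, 4.64 and 8.84 in the Tead4 knockdown; these did not overlap, but the change did not pass (0.90 ± 0.26, adjusted p = 0.0503). The creatine carrier Slc6a8, at 37.99 ± 4.81 FPKM in the control, passed in no knockdown (adjusted p = 0.326, 0.938 and 0.64).

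Of the 35 mitochondrial carriers, 7 rose and 5 fell in the Tfap2c knockdown (34.3% called). In the Tead4 knockdown 1 rose and 1 fell (5.71%), and in the double 6 rose and 6 fell (34.3%). Slc25a22, the mitochondrial glutamate carrier, stood at 9.6, 7.82, 6.49 and 7.04 FPKM in the control and 2.7, 1.54, 1.24 and 0.642 in the Tfap2c knockdown. Slc25a22 values were 10.3, 8.35, 7.03 and 6.81 in the Tead4 knockdown and 2.54, 2.48, 1.58 and 1.55 in the double knockdown. The Tfap2c and double knockdown libraries were all below the control and the Tead4 knockdown lay across it, with log2 changes of -1.84 ± 0.15, adjusted p = 1e-06, -1.53 with adjusted p = 7.8e-06 and 0.06 with adjusted p = 0.883. Slc25a39 and Slc25a40 bring glutathione into mitochondria. Slc25a39 stood at 32.4, 40.99, 33.9 and 41.3 FPKM in the control and 28.7, 18.2, 7.92 and 10.98 in the Tfap2c knockdown. Slc25a39 values were 31.5, 28.6, 51.7 and 42.8 in the Tead4 knockdown and 17.1, 16.8, 10.7 and 11.3 in the double knockdown. It fell in the Tfap2c and double knockdowns, whose libraries all lay below the control (adjusted p = 0.00404 and 0.00282). Slc25a40, named after its values were seen, fell too, from 4.44 ± 1.23 FPKM to 1.75 ± 0.602 and 1.98 ± 0.326 (adjusted p = 0.000843 and 0.00275).

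A set of mitochondrial carriers stood higher in the knockdowns. Slc25a51, the NAD carrier, stood at 11.5, 12.3, 15.9 and 16.3 FPKM in the control and 23.3, 21.2, 27.1 and 27.9 in the Tfap2c knockdown. Slc25a51 values were 13.7, 17.1, 25.4 and 21.9 in the Tead4 knockdown and 23.6, 22.6, 35.8 and 25.9 in the double knockdown. The Tfap2c and double knockdowns did not overlap the control, while the Tead4 knockdown did. Its log2 changes were 0.79 with adjusted p = 0.000115, 0.89 with adjusted p = 5.33e-05 and 0.43 with adjusted p = 0.0322. Slc25a51 lost the last call without any 1 of control A1/A2/B1/B2, Tead4 knockdown A2/B1/B2 (adjusted p 0.0575 to 0.105), and with no filter on low values, median-ratio scaling and no cross covariate (adjusted p = 0.0527, 0.0535 and 0.297). Slc25a14, an uncoupling protein relative, stood at 7.2, 6.99, 11.5 and 7.45 FPKM in the control and 19.2, 17.4, 14.03 and 16.6 in the Tfap2c knockdown. Slc25a14 values were 10.3, 10.3, 15.2 and 13.8 in the Tead4 knockdown and 18.04, 20.9, 16.9 and 12.9 in the double knockdown. It was higher without overlap in the Tfap2c and double knockdowns (adjusted p = 0.00114 and 0.00115), and control B1 stood above the other controls. Slc25a25 and Slc25a41 exchange ATP-magnesium for phosphate. Slc25a25 rose from 7.18 ± 2.72 FPKM to 14.2 ± 2.68 and 12.6 ± 1.56 in the Tfap2c and double knockdowns (0.94 ± 0.23, adjusted p = 0.00747, and 0.79 ± 0.23, adjusted p = 0.0217). Slc25a25, whose span overlaps Naif1, lost the call in the double without any 1 of control B1/B2, double knockdown B1 (adjusted p 0.0587 to 0.0766), and with no filter on low values and no cross covariate (adjusted p = 0.0592 and 0.082). Slc25a41 stood at 31.6, 30.4, 17.3 and 15.6 FPKM in the control and 48.5, 40.5, 22.6 and 25.4 in the Tfap2c knockdown, with both crosses higher in the knockdown and cross B lower in both groups, so that the groups overlap (0.51 ± 0.12, adjusted p = 0.00413). Slc25a36, a pyrimidine nucleotide carrier, stood at 88.2, 111, 77.7 and 80.7 FPKM in the control and 80.4, 76.1, 61.02 and 55.8 in the Tead4 knockdown, and fell there (-0.38 ± 0.11, adjusted p = 0.0448). Slc25a36 lost this call without any 1 of control A1/A2/B1/B2, Tfap2c knockdown A2/B2, Tead4 knockdown A2/B1/B2, double knockdown B1/B2 (adjusted p 0.0514 to 0.124), and with no filter on low values, quantile normalization, no cross covariate and no variance trend (adjusted p = 0.0894, 0.0722, 0.172 and 0.0658). The call was also lost with the replicate number as a block in place of the cross (adjusted p = 0.0735). The most abundant carriers did not pass: Slc25a3 had log2 changes of 0.10, -0.18 and 0.05 (adjusted p = 0.428, 0.233 and 0.736), Slc25a5 of -0.41, -0.11 and -0.55 (adjusted p = 0.131, 0.83 and 0.0541).

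Among 16 carriers of inorganic ions, 2 rose and 4 fell in the Tfap2c knockdown (37.5% called). In the Tead4 knockdown 1 rose and 1 fell (12.5%), and in the double 2 rose and 2 fell (25%). Slc12a7 (GRCm38 chromosome 13, 73733052 to 73816754), a potassium-chloride cotransporter that exports both ions and lowers cell volume, stood at 9.92, 9.66, 12.9 and 15.9 FPKM in the control and 2.6, 1.54, 2.96 and 3.14 in the Tfap2c knockdown. Slc12a7 values were 6.75, 6.82, 14.4 and 16.8 in the Tead4 knockdown and 2.3, 2.13, 4.18 and 3.4 in the double knockdown. Both knockdowns that target Tfap2c lay wholly below the control (-1.88 ± 0.15, adjusted p = 1.28e-06, and -1.72 ± 0.15, adjusted p = 4.82e-06), and the Tead4 knockdown overlapped it (-0.18 with adjusted p = 0.573). Slc12a2, the sodium-potassium-chloride cotransporter that brings the ions in, stood at 52.5, 60.5, 46.95 and 44.7 FPKM in the control and 55.2, 57.9, 63.03 and 53.05 in the Tfap2c knockdown. Slc12a2 values were 53.8, 47.7, 52.4 and 45.8 in the Tead4 knockdown and 72.9, 67.8, 69.5 and 74.4 in the double knockdown. Its 4 double knockdown libraries were the highest of all 16, and it rose there (0.48 ± 0.09, adjusted p = 0.00186) but did not pass in the single knockdowns (adjusted p = 0.202 and 0.92). Slc26a11, a sulfate and chloride carrier, stood at 1.91, 1.63, 3.92 and 2.64 FPKM in the control and 0.366, 0.709, 0.824 and 0.595 in the Tfap2c knockdown. Slc26a11 values were 3.6, 3.51, 4.82 and 5.18 in the Tead4 knockdown and 0.832, 0.454, 1.46 and 0.954 in the double knockdown. It fell without overlap in the Tfap2c and double knockdowns (-1.08 with adjusted p = 0.000103 and -0.85 with adjusted p = 0.000805) and rose with overlap in the Tead4 knockdown (0.61 with adjusted p = 0.0254). Slc26a11, whose span overlaps Sgsh, lost the call of the rise without any 1 of control A1/A2/B2, Tead4 knockdown A1/A2/B1/B2 (adjusted p 0.0555 to 0.082), and with a pseudocount of 0.1, no filter on low values and no cross covariate (adjusted p = 0.0799, 0.0536 and 0.16). Slc26a5, prestin of the cochlear hair cell, was low in most libraries and fell in the Tead4 knockdown, with a range of 0.546 to 2.44 FPKM in the control and 0 to 0.887 in the knockdown (adjusted p = 0.011). Slc24a5, a potassium-dependent sodium-calcium exchanger known from pigment cells, stood at 56.7, 85.7, 50.5 and 89.9 FPKM in the control and 26.4, 35.5, 50.4 and 36.9 in the Tfap2c knockdown (-0.90 ± 0.22, adjusted p = 0.00719), all 4 below the lowest control, with B1 just below it. Its span overlaps that of Myef2, on which reads cannot be told apart without strand. Slc34a2, the sodium-phosphate cotransporter, stood at 11.1, 12.4, 10.2 and 11.2 FPKM in the control and 13.1, 16.8, 23.9 and 22.6 in the Tfap2c knockdown, where it rose without overlap (0.68 ± 0.20, adjusted p = 0.021). Slc34a2 lost this call without any 1 of control B1/B2, Tfap2c knockdown B1/B2 (adjusted p 0.0531 to 0.0672), and with no filter on low values (adjusted p = 0.0544).

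Of the 16 zinc carriers, 0 rose and 2 fell in the Tfap2c knockdown (12.5% called). In the Tead4 knockdown 2 rose and 0 fell (12.5%), and in the double 0 rose and 2 fell (12.5%). Slc39a2, a zinc importer, stood at 32.9, 34.7, 19.99 and 24.1 FPKM in the control and 4.67, 9.04, 11.1 and 10.2 in the Tfap2c knockdown. Slc39a2 values were 35.8, 34.7, 36.4 and 28.2 in the Tead4 knockdown and 11.4, 9.003, 15.3 and 19.1 in the double knockdown. It was below the control in all libraries of the Tfap2c and double knockdowns (-1.59 ± 0.25, adjusted p = 0.000293, and -0.99 ± 0.25, adjusted p = 0.00922), and overlapped it in the Tead4 knockdown. Slc30a2, which loads zinc into vesicles, stood at 3.97, 2.05, 28.4 and 9.58 FPKM in the control and 0.513, 0.991, 2.63 and 0.892 in the Tfap2c knockdown. Slc30a2 values were 7.74, 2.89, 12.8 and 13.6 in the Tead4 knockdown and 0.353, 0.0967, 2.06 and 7.99 in the double knockdown. Its control spanned a wide range, with B1 far above the rest, and it fell with overlap in the Tfap2c and double knockdowns (adjusted p = 0.00394 and 0.0103). Slc39a6, another zinc importer, stood at 1.997, 4.94, 3.7 and 3.13 FPKM in the control and 2.64, 2.63, 6.37 and 6.19 in the Tfap2c knockdown. Slc39a6 values were 7.29, 5.92, 10.1 and 17.6 in the Tead4 knockdown and 2.48, 3.68, 5.32 and 4.12 in the double knockdown. All 4 Tead4 knockdown libraries lay above the control, and it rose there (1.27 ± 0.24, adjusted p = 0.00554). It was the single member called over 2-fold higher in that knockdown on the scale of log2(FPKM + 1). Slc39a14, an importer of zinc, iron and manganese, stood at 0.749, 1.04, 2.19 and 1.9 FPKM in the control and 1.44, 2.11, 3.06 and 5.89 in the Tead4 knockdown (0.67 ± 0.18, adjusted p = 0.0384), where it rose with overlap. Slc39a14 lost this call without any 1 of control A1/B1/B2, Tead4 knockdown A1/A2/B2 (adjusted p 0.0536 to 0.12), and with no filter on low values, median-ratio scaling, no cross covariate and the compared libraries alone (adjusted p = 0.0884, 0.0534, 0.493 and 0.0726). The call was also lost with the replicate number as a block in place of the cross (adjusted p = 0.0588). The abundant importers Slc39a1 and Slc39a4 passed in no knockdown (lowest adjusted p = 0.0818 and 0.469), nor did the plasma membrane exporter Slc30a1 (lowest adjusted p = 0.155).

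Of the 5 carriers of iron, copper, manganese and magnesium, 2 rose and 0 fell in the Tfap2c knockdown (40% called). In the Tead4 knockdown 0 rose and 1 fell (20%), and in the double 1 rose and 1 fell (40%). The magnesium carrier Slc41a2 stood at 1.25, 1.67, 2.93 and 1.56 FPKM in the control and 8.68, 5.03, 9.04 and 11.8 in the Tfap2c knockdown. Slc41a2 values were 1.87, 2.48, 4.02 and 1.28 in the Tead4 knockdown and 5.14, 5.09, 11.3 and 8.81 in the double knockdown. It rose without overlap in the Tfap2c and double knockdowns (1.74 ± 0.25, adjusted p = 0.000126, and 1.56 ± 0.25, adjusted p = 0.000371). The copper importer Slc31a1 rose in the Tfap2c knockdown, ranging over 8.1 to 12.2 FPKM in the control and 12.9 to 16.7 in the knockdown (0.45 ± 0.15, adjusted p = 0.0351). Slc31a1 lost this call without any 1 of control A1/B2, Tfap2c knockdown A1/B1 (adjusted p 0.0534 to 0.12), and with no filter on low values, median-ratio scaling, quantile normalization, no cross covariate and the compared libraries alone (adjusted p = 0.0693, 0.0656, 0.0527, 0.0628 and 0.0572); its span overlaps Fkbp15. Slc11a2, the proton-driven carrier of ferrous iron, stood at 48.2, 49.4, 54.8 and 60.4 FPKM in the control and 42.3, 42.7, 45.8 and 46.6 in the Tfap2c knockdown. Slc11a2 values were 34.02, 40.01, 52.3 and 36.1 in the Tead4 knockdown and 41.1, 30.96, 40.5 and 37.7 in the double knockdown. Every Tfap2c and double knockdown library lay below the control. Slc11a2 fell in the double (-0.49 ± 0.11, adjusted p = 0.00473), but its change in the Tfap2c knockdown did not pass. In the Tead4 knockdown, where B1 lay within the control, it was at the threshold (-0.40, adjusted p = 0.04997). Slc11a2 lost this call without any 1 of control A1/A2/B1/B2, Tfap2c knockdown A1/A2/B1/B2, Tead4 knockdown A1/A2/B2, double knockdown B1/B2 (adjusted p 0.0549 to 0.141), and with a pseudocount of 0.1, no filter on low values, no cross covariate, the compared libraries alone and no variance trend (adjusted p = 0.0536, 0.0931, 0.146, 0.0838 and 0.065). The call was also lost with the replicate number as a block in place of the cross (adjusted p = 0.071). Of 13 genes of zinc and iron handling, 1 rose and 6 fell in the Tfap2c knockdown (53.85% called). In the Tead4 knockdown 1 rose and 1 fell (15.38%), and in the double 1 rose and 6 fell (53.85%). The metal-binding metallothioneins Mt1 and Mt2 fell from 2430.0 and 1119 FPKM to 1040.0 and 535 in the Tfap2c knockdown (adjusted p = 3.4e-06 and 3.34e-05).

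Of 7 carriers of vitamins, haem and coenzymes, 3 rose and 1 fell in the Tfap2c knockdown (57.1% called). In the Tead4 knockdown 0 rose and 1 fell (14.3%), and in the double 3 rose and 1 fell (57.1%). Slc46a1 (GRCm38 chromosome 11, 78465701 to 78471945), the proton-coupled folate carrier, stood at 75.8, 67.5, 67.2 and 77.2 FPKM in the control and 63.99, 51.7, 52.7 and 61.5 in the Tfap2c knockdown. Slc46a1 values were 37.2, 31.2, 37.6 and 45.7 in the Tead4 knockdown and 35.3, 33.3, 38.2 and 38.97 in the double knockdown. All 12 knockdown libraries lay below the control, and the Tead4 and double knockdowns lay below the Tfap2c knockdown. Its log2 changes were -0.32 with adjusted p = 0.0319 in the Tfap2c knockdown, -0.92 ± 0.10, adjusted p = 0.000122 in the Tead4 knockdown and -0.96 with adjusted p = 1.94e-05 in the double. Slc46a1, whose span overlaps Sarm1, lost the first of these without any 1 of control A1/A2/B2, Tfap2c knockdown A2/B1/B2 (adjusted p 0.0531 to 0.0968), and with no filter on low values, no cross covariate and the compared libraries alone (adjusted p = 0.0557, 0.0621 and 0.0531). Both named thiamine carriers rose in the Tfap2c and double knockdowns. Slc19a3 stood at 23.1, 38.3, 16.7 and 19.9 FPKM in the control and 46.6, 78.4, 65.9 and 64.5 in the Tfap2c knockdown. Slc19a3 values were 25.6, 29.1, 16.9 and 13.6 in the Tead4 knockdown and 77.1, 61.96, 52.6 and 42.7 in the double knockdown. Its Tfap2c and double knockdown libraries all lay above the control (1.39 ± 0.21, adjusted p = 0.000208, and 1.26 ± 0.21, adjusted p = 0.00056), and the Tead4 knockdown overlapped it (-0.19 with adjusted p = 0.685). Slc19a2 rose from 2.21 ± 0.777 FPKM to 4.48 ± 0.355 and 3.71 ± 1.02 in the same knockdowns (adjusted p = 0.00254 and 0.0236). Slc19a2 lost the second call without any 1 of control A1/B2, double knockdown A2/B2 (adjusted p 0.0523 to 0.0845), and with no filter on low values, no cross covariate and the compared libraries alone (adjusted p = 0.0501, 0.11 and 0.0623).

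Of the 6 members in the sugar families, 2 rose and 2 fell in the Tfap2c knockdown (66.7% called). In the Tead4 knockdown 0 rose and 1 fell (16.7%), and in the double 2 rose and 2 fell (66.7%). Several of the 6 carry other solutes. Slc5a6, the abundant carrier of biotin and pantothenate, stood at 403, 339.7, 285 and 317 FPKM in the control and 295, 285, 244 and 246 in the Tfap2c knockdown. Slc5a6 values were 363, 377, 323 and 277 in the Tead4 knockdown and 296, 278, 238 and 243 in the double knockdown. Its span overlaps Atraid. It fell in the Tfap2c and double knockdowns, with both crosses lower and the groups overlapping (-0.32 ± 0.07, adjusted p = 0.0026, and -0.34 ± 0.07, adjusted p = 0.00197). The inositol carrier Slc5a3 rose in these knockdowns, from 4.03 ± 1.72 FPKM to 8.89 ± 1.51 and 8.78 ± 2.77 (adjusted p = 0.000429 and 0.000744); its span overlaps Mrps6. The other inositol carrier, Slc5a11, stood at 41.0, 31.7, 16.2 and 25.2 FPKM in the control and 24.7, 22.04, 16.9 and 14.1 in the Tfap2c knockdown. Slc5a11 values were 19.1, 20.8, 13.6 and 14.3 in the Tead4 knockdown and 12.9, 15.02, 8.62 and 13.6 in the double knockdown. It fell in all 3 knockdowns (-0.49 with adjusted p = 0.0318, -0.67 with adjusted p = 0.0228 and -1.08 with adjusted p = 0.000223), with no overlap in the double. Slc5a11 lost the first call without any 1 of control A1/A2/B2, Tfap2c knockdown A2/B2 (adjusted p 0.0529 to 0.109), and with no filter on low values, no cross covariate and the compared libraries alone (adjusted p = 0.0694, 0.2 and 0.051). The Tead4 knockdown call of Slc5a11 was lost without any 1 of control A1/B2, Tead4 knockdown A1/B1 (adjusted p 0.0578 to 0.0805), and with no filter on low values and no cross covariate (adjusted p = 0.0564 and 0.219). Slc45a3, of a family of proton-coupled sugar carriers, stood at 2.43, 1.58, 1.83 and 1.92 FPKM in the control and 4.38, 5.27, 6.47 and 5.23 in the Tfap2c knockdown, above the control in all 4 libraries (1.11 ± 0.15, adjusted p = 9.53e-05).

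Of 5 nucleoside carriers, 0 rose and 2 fell in each knockdown (40% called). Slc28a2 and Slc28a3 concentrate nucleosides with sodium, and Slc29a1 equilibrates them across the membrane. Slc28a3 stood at 3.66, 5.02, 4.97 and 5.93 FPKM in the control and 1.07, 0.974, 1.02 and 0.915 in the Tfap2c knockdown. Slc28a3 values were 0.9997, 1.77, 3.98 and 2.94 in the Tead4 knockdown and 1.07, 0.437, 1.42 and 1.72 in the double knockdown. It fell by 1.55, 0.85 and 1.47 on the log2 scale in the Tfap2c, Tead4 and double knockdowns (adjusted p = 5.57e-05, 0.0198 and 0.000105). The Tead4 knockdown alone, by its library B1, overlapped the control. Slc28a3 lost that call without any 1 of control A2/B2, Tead4 knockdown A1 (adjusted p 0.0567 to 0.0637), and with a pseudocount of 0.1, no filter on low values and no cross covariate (adjusted p = 0.0523, 0.0532 and 0.101). Slc28a2 stood at 1.25, 0.525, 4.51 and 3.57 FPKM in the control and 0, 0.226, 0.251 and 0 in the Tfap2c knockdown, 2 of whose libraries were listed at 0. Slc28a2 reached the level for inclusion through the control libraries, and it was lower in the Tfap2c and double knockdowns (adjusted p = 0.00755 and 0.0248). Slc28a2 lost the second call without any 1 of control A1/B1/B2, double knockdown B1 (adjusted p 0.0566 to 0.0891), and with no filter on low values and no cross covariate (adjusted p = 0.0739 and 0.129). Slc29a1 stood at 7.2, 8.8, 6.98 and 5.83 FPKM in the control and 9.61, 7.69, 7.06 and 4.43 in the Tfap2c knockdown. Slc29a1 values were 4.18, 4.27, 4.71 and 4.28 in the Tead4 knockdown and 9.47, 7.53, 5.98 and 4.53 in the double knockdown. Its Tead4 knockdown libraries all lay below the control, where it fell (-0.60 ± 0.17, adjusted p = 0.0494). Slc29a1 lost this call without any 1 of control A1/A2/B1/B2, Tfap2c knockdown A2/B1, Tead4 knockdown A1/A2/B2, double knockdown A2/B1 (adjusted p 0.0501 to 0.128), and with no filter on low values and no cross covariate (adjusted p = 0.0999 and 0.171); the Tfap2c and double knockdowns spread across the control.

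Of 10 members in families grouped under organic ions, peptides, drugs and vesicular transport, 3 rose and 1 fell in the Tfap2c knockdown (40% called). Families were placed whole, among them Slc37 with 3 members, so the heading does not name every substrate. In the Tead4 knockdown 0 passed by limma (2 of 10 at an unadjusted p under 0.05). In the double 3 rose and 1 fell (40%). Slc22a13, an organic anion carrier known for urate and nicotinate, stood at 4.96, 6.78, 4.2 and 6.09 FPKM in the control and 0.39, 0.441, 0.809 and 0.639 in the Tfap2c knockdown. Slc22a13 values were 3.95, 3.55, 3.69 and 4.45 in the Tead4 knockdown and 0.9, 0.728, 0.93 and 0.707 in the double knockdown. It was far below the control in all 8 libraries of the knockdowns that target Tfap2c. On the scale of log2(FPKM + 1), its fall was the largest of the 138 members in both of these groups (-2.04 ± 0.14, adjusted p = 4.26e-07, and -1.83 ± 0.14, adjusted p = 1.85e-06). Slc22a21 and Slc22a5, neighbouring paralogs that carry carnitine, moved the other way. Slc22a21 stood at 0.187, 0.502, 0.394 and 0.503 FPKM in the control and 3.64, 2.84, 2.52 and 1.92 in the Tfap2c knockdown. Slc22a21 values were 0.724, 1.05, 0.215 and 0.983 in the Tead4 knockdown and 2.54, 2.69, 1.71 and 2.44 in the double knockdown. It rose without overlap in the Tfap2c and double knockdowns (1.41 with adjusted p = 3.92e-05 and 1.26 with adjusted p = 0.000124). Slc22a5, named after its values were seen and included through its Tfap2c knockdown libraries, was higher in both, ranging over 0.213 to 0.425 FPKM in the control, 1.19 to 1.56 in the Tfap2c knockdown and 0.667 to 2.04 in the double (adjusted p = 0.00116 and 0.00319); reads shared by the pair could be split between them.

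Of 10 carriers of lipids, choline and bile acids, 3 rose and 1 fell in the Tfap2c knockdown (40% called). In the Tead4 knockdown 1 rose and 0 fell (10%), and in the double 1 rose and 0 fell (10%). Slc10a3, a member of the bile acid family whose substrate is unknown, stood at 13.8, 13.1, 14.6 and 10.7 FPKM in the control and 17.6, 22.3, 25.3 and 26.6 in the Tfap2c knockdown. Slc10a3 values were 23.4, 18.4, 21.8 and 18.8 in the Tead4 knockdown and 23.9, 24.5, 27.3 and 24.7 in the double knockdown. All 12 knockdown libraries lay above the control, and it rose in all 3 groups (0.76 with adjusted p = 0.000554, 0.62 with adjusted p = 0.00992 and 0.90 with adjusted p = 0.000163); its span overlaps the predicted gene Gm44504. The choline carrier Slc44a1 stood at 7.09, 6.004, 5.03 and 6.38 FPKM in the control, 3.41, 3.27, 3.94 and 3.81 in the Tfap2c knockdown and 5.17, 3.79, 6.07 and 6.87 in the double. It fell without overlap in the Tfap2c knockdown (-0.62 ± 0.15, adjusted p = 0.00515) and overlapped the control in the double (-0.15 with adjusted p = 0.482).

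Of 5 carriers of mono-, di- and tricarboxylates, 1 rose and 1 fell in the Tfap2c knockdown (40% called). In the Tead4 knockdown 1 rose and 0 fell (20%), and in the double 1 rose and 1 fell (40%). Slc16a6, a monocarboxylate carrier known for ketone bodies, stood at 56.2, 57.7, 64.7 and 65.03 FPKM in the control and 112, 86.04, 115 and 98.8 in the Tfap2c knockdown. Slc16a6 values were 78.6, 95.4, 70.7 and 78.9 in the Tead4 knockdown and 106, 104, 116 and 88.3 in the double knockdown. Every knockdown library lay above the control, and the rise passed in the Tfap2c and double knockdowns (0.74 ± 0.12, adjusted p = 0.000292, and 0.75 ± 0.12, adjusted p = 0.000295) but not in the Tead4 knockdown (0.40 with adjusted p = 0.056); its span overlaps Arsg. Slc16a5, of the same family, stood at 9.28, 4.68, 7.29 and 5.12 FPKM in the control and 5.3, 5.78, 8.42 and 5.61 in the Tfap2c knockdown. Slc16a5 values were 15.8, 10.0, 15.9 and 10.8 in the Tead4 knockdown and 5.85, 4.26, 9.55 and 5.15 in the double knockdown. It was higher without overlap in the Tead4 knockdown (0.91 ± 0.24, adjusted p = 0.034). Slc16a5 lost this call without any 1 of control A2/B1/B2, Tead4 knockdown A1/B1 (adjusted p 0.0573 to 0.112), and with no filter on low values, median-ratio scaling, quantile normalization, no cross covariate and the compared libraries alone (adjusted p = 0.0894, 0.052, 0.0504, 0.0652 and 0.051). Slc16a1, the proton-coupled carrier of lactate and pyruvate, stood at 3.38, 6.44, 7.49 and 5.5 FPKM in the control and 5.63, 8.03, 10.9 and 8.56 in the Tfap2c knockdown. Slc16a1 values were 9.49, 9.07, 8.21 and 8.24 in the Tead4 knockdown and 4.71, 5.45, 4.84 and 4.82 in the double knockdown. The Tead4 knockdown lay above the control and the double knockdown within it, and no change against control passed (adjusted p = 0.0648, 0.078 and 0.655). Slc16a13, which reached the level for inclusion through the control libraries, stood lower in the knockdowns, going from 1.25 ± 0.345 FPKM to 0.458 ± 0.288 and 0.544 ± 0.203 in the Tfap2c and double knockdowns (adjusted p = 0.005 and 0.0149). Slc16a13 lost the second call without any 1 of control B2, double knockdown B1 (adjusted p 0.0535 to 0.056). Nucleotide sugar carriers of the Slc35 family supply glycosylation in the Golgi. The 5 members of this family are all Slc35a genes, as symbols with another letter were left out by the rule. Of these 5, 0 passed by limma in any knockdown (0, 0 and 0 in the Tfap2c, Tead4 and double knockdowns at an unadjusted p under 0.05). Slc35a4 stood at 35.3, 29.4, 21.5 and 21.7 FPKM in the control and 31.9, 28.2, 14.2 and 18.9 in the Tfap2c knockdown.

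**Figure D3:**
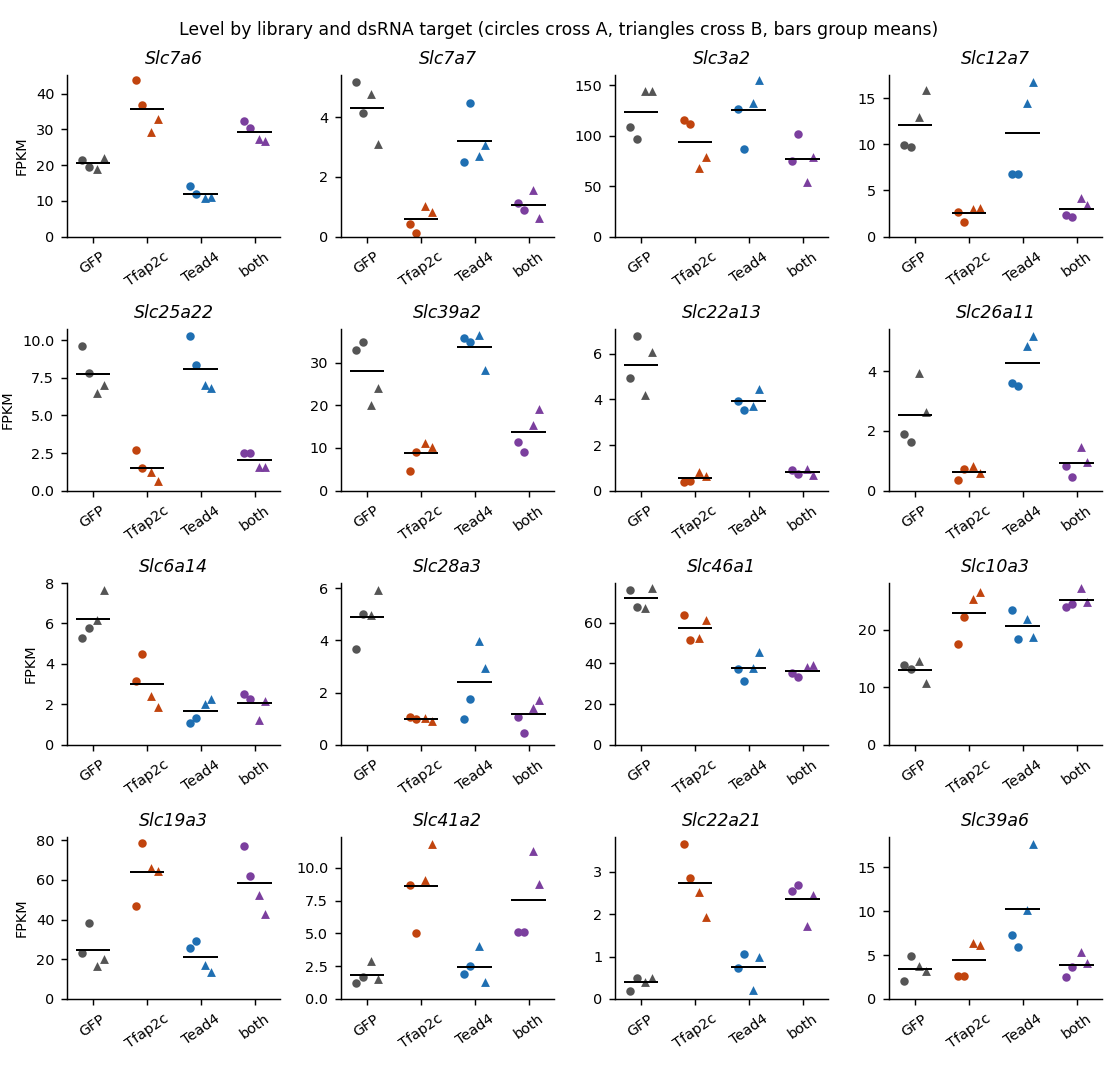
FPKM of 16 members in each of the 16 libraries, one panel per member, with circles for cross A, triangles for cross B and bars at the group means. Slc7a6 is high in the Tfap2c knockdown (mean 35.7 FPKM) and low in the Tead4 knockdown (mean 11.96) against 20.4 in the control, and Slc22a13 is low in both groups that target Tfap2c.

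Whether depleting the second factor changed the carriers further was tested by comparing the double knockdown with each single one. Against the Tfap2c knockdown, 1 member passed, Slc46a1, which was lower in the double (-0.64 ± 0.10, adjusted p = 0.0295, in 4 of 4 libraries below all 4), against 0.14% of all genes, 0.035% higher and 0.105% lower. This call was absent with a pseudocount of 0.1, with no filter on low values, without the cross as a covariate, with the compared libraries alone and without the trend in the variance, and Slc46a1 lost it without any 1 of Tfap2c knockdown A1/A2/B2, double knockdown A1/A2/B1/B2 (adjusted p 0.055 to 0.134). Against the Tead4 knockdown, 50 members passed, 22 higher and 28 lower (36.2%), against 23.7% of all genes, 10.9% higher and 12.9% lower. Slc7a6 was higher there by 1.22 ± 0.10, adjusted p = 1.68e-06, Slc19a3 by 1.45 ± 0.21, adjusted p = 0.000179, and Slc25a22, Slc12a7 and Slc22a13 changed by -1.59, -1.54 and -1.43 (adjusted p = 4.14e-06, 8.59e-06 and 8.48e-06). The zinc importer Slc39a6 and the monocarboxylate carriers Slc16a1 and Slc16a5, all higher in the Tead4 knockdown libraries than in the control libraries, were lower in the double than in the Tead4 knockdown (-1.12 with adjusted p = 0.00368, -0.71 with adjusted p = 0.0118 and -0.99 with adjusted p = 0.00671), and so was Slc1a5 (-0.99 with adjusted p = 0.0107). Both comparisons use the same 4 Tead4 knockdown libraries, so high values there by chance would give both differences. Against the control, the rises of Slc16a1 and Slc1a5 in the Tead4 knockdown did not pass.

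Loss of Tfap2c was measured in a pair of contrasts that share no library, the Tfap2c knockdown against the GFP control and the double knockdown against the Tead4 knockdown. Of the 27 members higher in the first, 16 were also called higher in the second (59.3% of the first list and 72.7% of the 22 in the second), and 25 had the same sign, with median log2 changes of 0.74 and 0.43. Of the 25 lower in the first, 17 were also called lower (68.0%, and 60.7% of the 28), and 23 had the same sign, with medians of -0.98 and -0.64. No member was called in opposite directions. Over all genes, 45.3% of those higher and 62.2% of those lower in the first were called the same way in the second, and 89.8% and 94.4% had the same sign. Loss of Tead4 was compared in the same way, the Tead4 knockdown against control and the double against the Tfap2c knockdown. Of 7 members higher in the first, 4 had the same sign and 0 were called in the second, with medians of 0.62 and 0.01. Of 9 lower, 8 had the same sign and 1, Slc46a1, was called, with medians of -0.73 and -0.27. Over all genes, 68.1% and 80.8% had the same sign, and 0.522% and 2.21% were called the same way. Their medians were 0.67 and 0.10 for those higher and -0.86 and -0.22 for those lower. For either factor, genes were chosen by their change in the first contrast, so their median change tends to be larger there. The 2 contrasts used for loss of Tead4 do not lower Tead4 alike. Its own log2 change was -2.551 in the first and -1.515 in the second, as the Tfap2c knockdown already stood at 58.2% of the control.

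**Figure D4:**
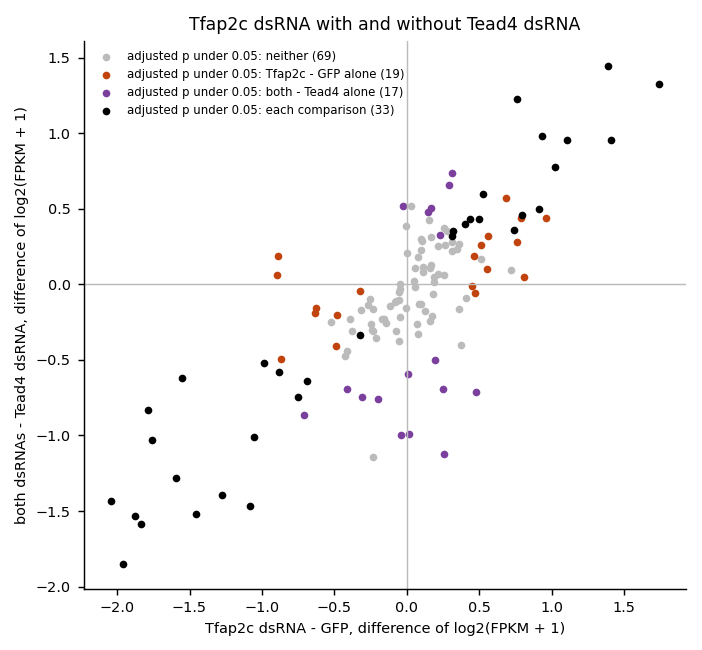
Log2 change of the 138 members in the Tfap2c knockdown against the control (x axis) and in the double against the Tead4 knockdown (y axis), 2 contrasts that share no library, coloured by where the adjusted p is under 0.05. Of 52 members called on the x axis, 48 have the same sign on the y axis.

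The non-additive part, the log2 change of the double knockdown minus the sum of the single changes, passed by limma for 0 members, against 0.753% of all genes. At an unadjusted p under 0.05 were 26 of 138 members, beside 1369 of 11422 genes. The lowest adjusted p was that of Slc16a1 (-1.19 ± 0.26, adjusted p = 0.0521), and that of Slc39a6 was next (-1.38 ± 0.34, adjusted p = 0.0845). Leaving out control A2, control B1, Tfap2c knockdown A1 or double knockdown A2 gave 1 called member each. Of the 5 carboxylate carriers, 4 had an unadjusted p under 0.05, but this is 1 of 12 substrate groups. Among amino acid carriers 6 of 18 did, among mitochondrial carriers 2 of 35 and among zinc carriers 3 of 16.

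The single knockdowns were also compared directly. Between the Tfap2c and Tead4 knockdowns 58 members differed, 26 higher and 32 lower in the Tfap2c knockdown (42.0%), against 29% of all genes, 13.8% higher and 15.2% lower. Slc7a6, which was above the control in the first and below it in the second, differed by 1.49 ± 0.10, adjusted p = 1.18e-07, and Slc26a11, which fell in the first and rose in the second, by -1.70 ± 0.15, adjusted p = 1.37e-06. Slc26a5 and Slc6a13 were higher in the Tfap2c knockdown (1.24 with adjusted p = 0.000253 and 1.41 with adjusted p = 0.000813), as was Slc25a36 (0.68 with adjusted p = 0.000229). Slc6a13 and Slc22a5, both among the 26 higher, reached the level for inclusion through the Tfap2c knockdown libraries, so their p-values are descriptions. The same holds for any other called member that needed the libraries of the group where it was high. Zinc carriers Slc30a2 and Slc39a2 were lower in the Tfap2c knockdown (-2.09 with adjusted p = 0.00228 and -1.89 with adjusted p = 5.52e-05), as were the nucleoside carrier Slc28a2 (-1.78 with adjusted p = 0.00182) and the mitochondrial glutamate carrier Slc25a22 (-1.90 with adjusted p = 3.87e-07).

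The crosses differed for many carriers. Comparing cross B with cross A over all groups, 58 members passed, 23 higher and 35 lower in cross B (42.0%), against 33.5% of all genes, 17.2% higher and 16.3% lower. The labels do not say whether the crosses were handled together, so the maternal strain and any batch cannot be told apart. Slc25a41 stood at 30.4, 38.9 and 55.9 FPKM in cross A (lowest, median and highest of 8) and 15.6, 21.2 and 25.4 in cross B. Its crosses did not overlap (-0.90 ± 0.08, adjusted p = 4.03e-06). Slc35a4 was likewise lower in cross B without overlap, with 28.2, 32.4 and 36.6 FPKM in cross A (lowest, median and highest of 8) and 14.2, 21.4 and 27.7 in cross B (-0.59 ± 0.08, adjusted p = 0.000111), and its span overlaps Apbb3. No other member separated the crosses, and 3.38% of all genes did, 1.29% higher and 2.09% lower in cross B. Members lower in cross B included the ADP/ATP carrier Slc25a4 (-0.70 ± 0.13, adjusted p = 0.00125), the coenzyme A carrier Slc25a42 (-0.79 with adjusted p = 0.000516), Slc22a20, an organic anion carrier (-0.78 with adjusted p = 9.17e-05), and Slc39a11, of the zinc importer family, whose span overlaps Sstr2 and Cog1 (-0.81 with adjusted p = 0.000375). Members higher in cross B included Slc30a2 (1.54 ± 0.31, adjusted p = 0.00175), Slc39a14 (medians of 2.85 against 0.844 FPKM, adjusted p = 5.46e-05), Slc28a2 (0.997 with adjusted p = 0.00808) and Slc44a4, a carrier of choline and thiamine pyrophosphate (0.97 with adjusted p = 0.000212). Of the amino acid carriers 0 were higher and 4 lower in cross B (22.2% called). Of the mitochondrial carriers 6 were higher and 10 lower (45.7%), and of the zinc carriers 4 were higher and 4 lower (50%). The members' share of all FPKM was 0.405% ± 0.0267 over the libraries of cross B and 0.452% ± 0.0192 over those of cross A (SD, n = 8; exact permutation test, two-sided, p = 0.00218, adjusted over 16 such tests 0.0174). The summed FPKM of the mitochondrial carriers was 1717 ± 170.1 and 1966 ± 139.8 in the same order (exact permutation p = 0.00668, adjusted 0.0356). No member passed limma's interaction test of a knockdown's change between the crosses (0 at an adjusted p under 0.05 for each knockdown, as over all genes). At an unadjusted p under 0.05 were 16, 9 and 16 of 138 members for the Tfap2c, Tead4 and double knockdowns. Beside them were 1888, 797 and 1284 of 11422 genes. With 2 libraries per cross and group the test has little power, so 0 calls do not show that the crosses responded alike.

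**Figure D5:**
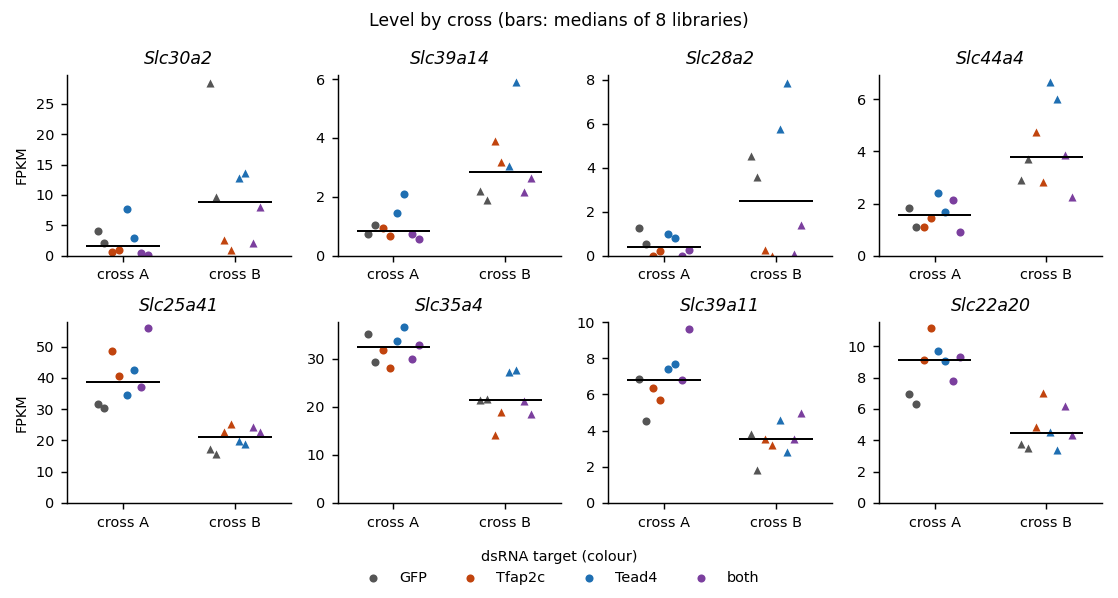
FPKM of 8 members in the 8 libraries of cross A and the 8 of cross B, coloured by knockdown group, with bars at the medians. For Slc25a41 every library of cross A (at least 30.4 FPKM) lies above every library of cross B (at most 25.4 FPKM).

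Genes that work beside the carriers were read from lists. Of 17 partners, pumps and channels, 3 rose and 3 fell in the Tfap2c knockdown (35.3% called). In the Tead4 knockdown 1 rose and 0 fell (5.88%), and in the double 2 rose and 3 fell (29.4%). These shares and those of the lists below stand beside 29.6%, 6.13% and 25.1% of all genes, in the same order. Single genes named here do not stand for their list. Mpc1, a subunit of the mitochondrial pyruvate carrier, stood at 775, 776, 829 and 978 FPKM in the control and 639, 618, 579 and 701 in the Tfap2c knockdown (-0.40 ± 0.07, adjusted p = 0.00107). Of 27 tested genes of amino acid sensing at the lysosome, 4 rose and 1 fell in the Tfap2c knockdown (18.5% called). In the Tead4 knockdown 1 rose and 1 fell (7.41%), and in the double 4 rose and 2 fell (22.2%). Rragd, a Rag GTPase, stood at 8.98, 7.35, 18.7 and 22.99 FPKM in the control and 2.29, 3.32, 3.86 and 5.16 in the Tead4 knockdown (-1.63 ± 0.31, adjusted p = 0.00528), and Tfeb, which drives lysosomal genes, at 6.47, 6.28, 11.4 and 5.26 and 0, 0.0775, 1.64 and 0.784 in the control and the Tfap2c knockdown (-2.42 ± 0.26, adjusted p = 1.13e-05). Of 11 tested ABC transporters, 2 rose and 0 fell in the Tfap2c and in the double knockdown (18.2% called in each). In the Tead4 knockdown 0 rose and 2 fell (18.2%). Abcb1a, a drug efflux pump, stood at 21.7, 23.6, 15.8 and 15.9 FPKM in the control and 44.8, 43.6, 26.4 and 40.8 in the Tfap2c knockdown. Abcb1a values were 1.04, 1.03, 0.422 and 1.56 in the Tead4 knockdown and 19.1, 15.9, 9.81 and 14.3 in the double knockdown. The Tfap2c knockdown lay above and the Tead4 knockdown below the control (0.97 with adjusted p = 0.00116 and -3.34 with adjusted p = 8.68e-08).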

How the data were processed

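Gene expression was read from whole 8-cell embryos in 16 libraries, made with SuperScript II and Smart-seq2 and the TruePrep V2 kit per the labels' protocols. The authors deposited FPKM values, and the submitters' processing notes name CASAVA, Trim Galore, STAR, Cufflinks and mm10; neither strand handling nor versions are stated there. Of 43496 lines, 59 repeated an identifier and were summed. Read counts were not used here, so depth, counting intervals and limits of detection are unknown.

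From the deposited FPKM, log2 values were computed with a pseudocount of 1, for the 11422 genes that reached 1 FPKM in 4 or more of the 16 libraries, which understates changes of low genes. A linear model with group and cross was fitted to all 16 libraries with limma 3.58.1 in R 4.3.3 (empirical Bayes with a variance trend), and p-values were Benjamini-Hochberg adjusted over all genes tested, called under 0.05. Values per group are means ± SD over 4 libraries, and log2 changes are given ± SE. Sums were compared by exact permutation in scipy 1.17.1. The fit was tested on simulated data.

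Named members were the 15 highest in the control, the 8 largest rises and falls per knockdown with a mean of at least 5 FPKM in 1 group, the 2 of lowest p per substrate group and knockdown, the 4 largest rises and falls of the other contrasts, those at the threshold and a list of looked-up carriers. The members, substrate groups and gene lists were chosen with earlier results of these data known. Locations and overlapping genes are from GRCm38.p6. Alternatives were another pseudocount, no filter, other scalings, other covariates, fewer libraries and no variance trend. Protein sequences were not used here.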

Additional observations from a re-analysis of the deposited data

Results flagged for a closer look

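In 4 cases 1 library stood apart from the other 3 of its group for a member named in the report, by the gap to its nearest neighbour as a share of the group's range. For Slc25a14 the control library B1 stood at 11.5 FPKM and the others at 6.99 to 7.45, a gap of 0.898 of the range. For Slc16a5 the Tfap2c knockdown library B1 stood at 8.42 FPKM and the others at 5.30 to 5.78, a gap of 0.848. For the prestin gene Slc26a5 the Tead4 knockdown library A2 stood at 0.887 FPKM and the others at 0 to 0.133, a gap of 0.85. For the zinc importer Slc39a4 the double knockdown library B2 stood at 75.1 FPKM and the others at 79.4 to 80.1, a gap of 0.872. Over all 138 members, 3 in the control, 5 in the Tfap2c knockdown, 4 in the Tead4 knockdown and 7 in the double stood apart in this way (2.17% to 5.07% of the members), where chance gives about 1 in 20.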

How the results depend on the processing

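The count for the Tead4 knockdown, 16 members, was 6 with no filter on low values and 4 without the cross as a covariate, and 7 to 17 when 1 library was left out. The single member lower in the double than in the Tfap2c knockdown was lost, leaving 0, with a pseudocount of 0.1, no filter, no cross covariate, the compared libraries alone and no variance trend, and the count was 0 to 1 when 1 library was left out. The count of 50 between the double and the Tead4 knockdown was 26 without the cross as a covariate and 37 to 52 with 1 library left out. The non-additive count was 0 to 1. With 1 library left out, the counts were 41 to 53 for the Tfap2c knockdown, 35 to 47 for the double, 45 to 62 between the single knockdowns and 44 to 52 between the crosses. The cause of these shifts was not tested. Of 205 called results of the 65 named members, 135 kept their call under all alternatives run, 70 lost it in at least 1, and 0 changed direction.

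Libraries with the same number did not deviate together (r from -0.165 to 0.176), so the numbers were not read as pairs. With the replicate number as a block in place of the cross, 52 members were called in the Tfap2c knockdown, 12 in the Tead4 knockdown, 44 in the double, 1 between the double and the Tfap2c knockdown, 46 between the double and the Tead4 knockdown, 57 between the single knockdowns and 0 as non-additive.

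FPKM carry no read depth, so small changes of members near 1 FPKM cannot be weighed against counting error.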
